A study of Rattus norvegicus with 12 samples.

Results

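The genes described here are neuropeptides, calcium-binding proteins and GABA-synthesising enzymes that mark inhibitory interneurons of the hippocampus. The list held 10 genes, Cck, Vip, Sst, Npy, Cort, Penk, Pvalb, Gad1, Gad2 and Calb2, and a probe set was taken as a member when its only gene symbol in the platform annotation was one of these. This gave 9 genes, of 10411 named on the array, through 10 of its 15923 probe sets, with 2 probe sets for Gad1 (1368344_at and the dimmer 1370760_a_at) and 1 for each other gene. Cort is not reported, since its 3 probe sets carried 4 gene symbols each. Of the 10 probe sets, 9 had a mean level of at least 4 on the log2 scale and were tested, and the single Calb2 probe set lay below that level. Levels are log2 probe set signals, so that a difference of 1 is a doubling.

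RNA came from the microdissected CA1 field of the hippocampus of 12 young male Long-Evans rats, 3 to 4 months old and housed singly, with 1 Affymetrix RAE230A array per rat. The 6 spatial learning rats swam to a visible platform that kept its place in a maze with orienting cues. The 6 control task rats swam to a visible platform that moved between trials, in a maze without informative cues. Rats of both groups had had standard water maze training 2 to 3 weeks before, swam 8 trials 8 minutes apart in the new maze, and were tested 1 hour later for 90 seconds without the platform, just before tissue was taken. There was no group of untrained rats, so the comparison is between 2 kinds of swimming experience. The question is whether learning a place leaves interneuron transcripts of CA1 at another level than swimming alone.

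Inhibitory interneurons are a minority of hippocampal neurons, and they make GABA from glutamate with the enzymes encoded by Gad1 (GAD67) and Gad2 (GAD65). Their classes are told apart by what else they contain. Parvalbumin marks fast-spiking basket and axo-axonic cells that inhibit the cell body, somatostatin and neuropeptide Y mark cells that inhibit dendrites, cholecystokinin marks a further class of basket cells, and vasoactive intestinal peptide and calretinin mark cells many of which inhibit other interneurons. The peptides are stored in dense-core vesicles and act on G protein-coupled receptors. Cck is also transcribed in pyramidal cells of the rodent hippocampus, so it is not exclusive to interneurons in this tissue.

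Several of these peptide genes are textbook targets of the transcription factor CREB, which is activated by cAMP and calcium and binds the cAMP response element. The sequences below are shown because they hold the element from which that factor was first described, in Sst, and its relative in Vip. They are stretches of RefSeq promoter windows on the GRCr8 assembly, both on the plus strand, chr11:90461498-90461575 for Sst and chr1:44470333-44470407 for Vip. Capitals mark TGACGTCA in Sst, which begins at base 3 from the annotated start, and the shorter TGACG in Vip, which begins at position -97 from it.
Sst: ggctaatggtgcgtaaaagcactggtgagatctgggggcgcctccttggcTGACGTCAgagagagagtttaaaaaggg
Vip: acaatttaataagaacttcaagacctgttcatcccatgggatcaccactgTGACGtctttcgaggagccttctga
Windows of 300 bases, 250 before and 50 after the annotated start, were found for 6 member genes, Gad1, Gad2, Npy, Pvalb, Sst and Vip. TGACGTCA, searched on both strands, was present in 1 of the 6 (Sst) and in 1.83% of all 33469 windows. TGACG, also searched on both strands, was present in 3 of the 6 (Sst, Vip and Pvalb) and in 21.2% of all windows. The 2 matches of TGACG in Sst lie within its TGACGTCA, one on each strand.

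Array-to-array correlations over the tested probe sets ran from 0.989 to 0.995. Of 11 CA1 pyramidal markers 9 had a probe set and all 9 were bright enough to test, averaging 11.11 to 11.40 in the spatial learning arrays and 10.94 to 11.21 in the control task arrays. Spatial learning array 6 and control arrays 3 and 6 stood apart from the rest. The 6 tested meningeal markers averaged 7.70 in spatial learning array 6 and 7.95 in control array 6, against 6.29 to 6.84 in the other arrays, and the 3 tested choroid plexus markers averaged 9.49 in control array 3, against 5.70 to 7.39 elsewhere. By group, the choroid plexus mean was 5.70 to 6.05 in spatial learning and 5.94 to 9.49 in control task arrays. Of its 3 markers, Ttr was lower in all 6 spatial learning arrays (3.66 to 4.43) than in any control (4.55 to 13.41, limma adjusted p = 0.423). Groups did not overlap for 0.635% of all probe sets. Spatial learning minus control task was -3.33 for Ttr, -0.41 for Enpp2 and 0.18 for Kcne2. The hexokinase control, whose gap between 3' and 5' signal is a sign of RNA quality, gave 1.65 ± 0.11 in spatial learning and 1.48 ± 0.08 in control task arrays (log2, SD, n = 6 each, exact permutation p = 0.00433). Differences of the members are given with and without the 3 arrays where the 2 values differ in call, sign or size. The same was done for most, not all, of the correlations, and counts over gene lists are over all 12 arrays.

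The GABA-synthesis enzymes were a little lower on average after spatial learning, and none of their differences passed the test. Gad1 on its brighter probe set had a lowest level of 10.43, a median of 10.49 and a highest of 10.64 in spatial learning arrays, against 10.34, 10.62 and 10.71 in control task arrays. The groups overlapped, with 3 control arrays above every spatial learning array and control array 6 below them all. The difference, spatial learning minus control task as throughout, was -0.07 (95% interval -0.20 to 0.06, limma adjusted p = 0.697).

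The second Gad1 probe set, of a type that can detect alternative transcripts of the gene, lay between 6.18 and 6.54 with a median of 6.24 in spatial learning arrays. It lay between 5.98 and 6.99 with a median of 6.65 in control task arrays. Control arrays fell at both ends, 4 above and 2 below every spatial learning array, and the SD was 0.13 in spatial learning and 0.39 in control task arrays. Differences in spread were not tested for this or any other member. The difference was -0.23 (interval -0.56 to 0.10, limma adjusted p = 0.612). Control array 6 was the lowest of all 12 on both Gad1 probe sets, and without it the differences were -0.12 and -0.33, with limma adjusted p of 0.344 and 0.377. Without the 3 arrays that stood apart they were -0.12 and -0.37 (limma adjusted p = 0.313 and 0.391). Other settings made the differences smaller. The brighter probe set gave -0.044 without control array 3, and the second gave -0.13 without control array 4 and -0.12 with the hexokinase gap as a covariate.

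Gad2 varied most among the members. Its levels ran from 6.34 over a median of 7.20 to 7.68 in spatial learning arrays, and from 6.87 over 7.39 to 7.96 in control task arrays. Spatial learning array 4 was lowest and control array 4 highest, and the remaining arrays overlapped. The within-group SD of 0.41 was larger than that of 98.5% of all tested probe sets, whose median was 0.12. The difference of -0.28 therefore had a wide interval, -0.73 to 0.17 (limma adjusted p = 0.658). It was -0.13 without spatial learning array 4, -0.17 without control array 4 and -0.33 without the 3 arrays that stood apart. In bulk tissue, a change in the number of interneurons and a change in RNA per interneuron cannot be told apart for any member. For Cck, RNA from pyramidal cells cannot be told apart from that of interneurons either.

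Cck, the precursor of cholecystokinin, was the member with the clearest separation. It had a lowest level of 11.98, a median of 12.11 and a highest of 12.29 in spatial learning arrays, against 11.80, 11.88 and 12.15 in control task arrays. All 6 spatial learning arrays lay above the control median, and 4 control arrays lay below every spatial learning array, whereas control arrays 3 and 6 reached into the range of the spatial learning group. The difference was 0.19 (interval 0.04 to 0.33), a ratio of 1.14 with an interval of 1.03 to 1.26. The unadjusted limma p was 0.0150 and the exact permutation p 0.0346, and the call did not pass over all probe sets (limma adjusted p = 0.423). By p it ranked 339 of 9610.

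Both controls that overlapped with the spatial learning group on Cck were among the arrays that stood apart. Without those 3 arrays Cck lay between 11.98 and 12.29 in the 5 remaining spatial learning arrays and between 11.80 and 11.91 in the 4 remaining control task arrays, with no overlap, as for 4.82% of all probe sets over the same 9 arrays. Both controls that overlapped are among those left out. The difference was then 0.29 (limma adjusted p = 0.115), still short of the threshold. With the hexokinase gap as a covariate it was 0.18 (limma adjusted p = 0.782).

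Vip, the precursor of vasoactive intestinal peptide, had the largest positive difference. It lay between 6.76 and 7.33 with a median of 7.14 in spatial learning arrays, and between 6.52 and 7.13 with a median of 6.93 in control task arrays. In 3 spatial learning arrays, 3, 4 and 6, Vip was above every control, and control arrays 2 and 6 lay below every spatial learning array. The difference was 0.24 (interval -0.0045 to 0.49, limma adjusted p = 0.461, exact permutation p = 0.0844). Without the 3 arrays that stood apart it was 0.16 (limma adjusted p = 0.628). It was 0.32 with the hexokinase gap as a covariate (limma adjusted p = 0.782).

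**Figure D1:**
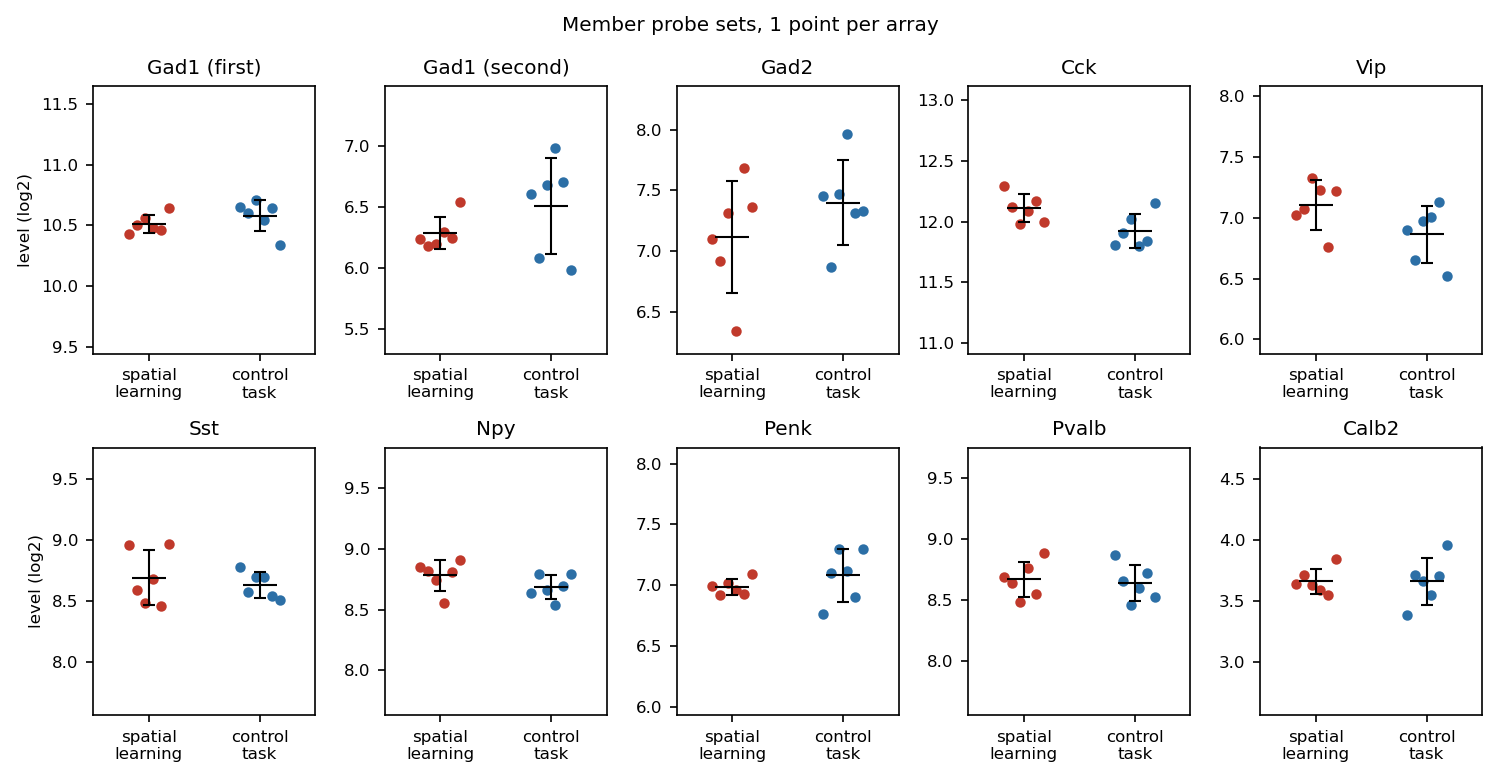
Level (log2) of the 10 member probe sets in each array, spatial learning on the left (red) and control task on the right (blue); horizontal bars are means and error bars are SDs (n = 6 each). The spatial learning arrays lie mostly high for Cck (medians 12.11 and 11.88) and Vip (7.14 and 6.93), the control arrays spread to both ends for the second Gad1 probe set and for Penk, and the groups overlap in every panel.

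Sst, the somatostatin precursor, was nearly level between the groups in the mean but more spread after spatial learning. It lay between 8.46 and 8.97 with a median of 8.63 in spatial learning arrays, and between 8.51 and 8.78 with a median of 8.64 in control task arrays. Spatial learning arrays 1 and 6, at 8.96 and 8.97, stood above every control, and spatial learning arrays 3 and 5, at 8.48 and 8.46, below every control. The difference was 0.05 (interval -0.15 to 0.26, limma adjusted p = 0.864). Without spatial learning array 6 it was -0.00063, without spatial learning array 1 it was 0.00051, and without the 3 arrays that stood apart it was -0.015.

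Npy, the neuropeptide Y precursor, had a lowest level of 8.55, a median of 8.82 and a highest of 8.91 in spatial learning arrays, against 8.54, 8.68 and 8.79 in control task arrays. In 4 spatial learning arrays it was above every control, and array 4 of each group was the lowest. The difference was 0.09 (interval -0.04 to 0.23, limma adjusted p = 0.617). It was 0.089 without the 3 arrays that stood apart. With the hexokinase gap as a covariate it was -0.0064, and over the 12 arrays Npy and that gap had a Pearson r of 0.61 (permutation p = 0.0329, adjusted p = 0.243). That r was 0.47 without the 3 arrays that stood apart.

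Penk, the precursor of the enkephalins, was tightly grouped after spatial learning and spread in the controls. It lay between 6.92 and 7.09 with a median of 6.98 in spatial learning arrays, and between 6.76 and 7.30 with a median of 7.11 in control task arrays. Of the controls, 4 were above and 2 below every spatial learning array, and arrays 3 and 6 were the highest, both at 7.30 after rounding. The difference was -0.09 (interval -0.28 to 0.10, limma adjusted p = 0.730). It was -0.0048 without the 3 arrays that stood apart and -0.05 without control array 3 or control array 6, but -0.16 without control array 1 and -0.18 with the hexokinase gap as a covariate.

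Of the calcium-binding protein genes only Pvalb was tested, and its difference did not pass. Pvalb, encoding parvalbumin, lay between 8.48 and 8.88 with a median of 8.66 in spatial learning arrays, and between 8.46 and 8.87 with a median of 8.62 in control task arrays, almost the same range. Its difference was 0.03 (interval -0.14 to 0.20, limma adjusted p = 0.916), and -0.086 without the 3 arrays that stood apart. Calb2, encoding calretinin, was too dim to be tested, at 3.55 to 3.84 in spatial learning arrays and 3.38 to 3.96 in control task arrays. Its highest arrays were array 6 of each group, the pair with high meningeal markers. At these levels there is too little signal to compare arrays, and a relation to those markers was not tested.

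**Figure D2:**
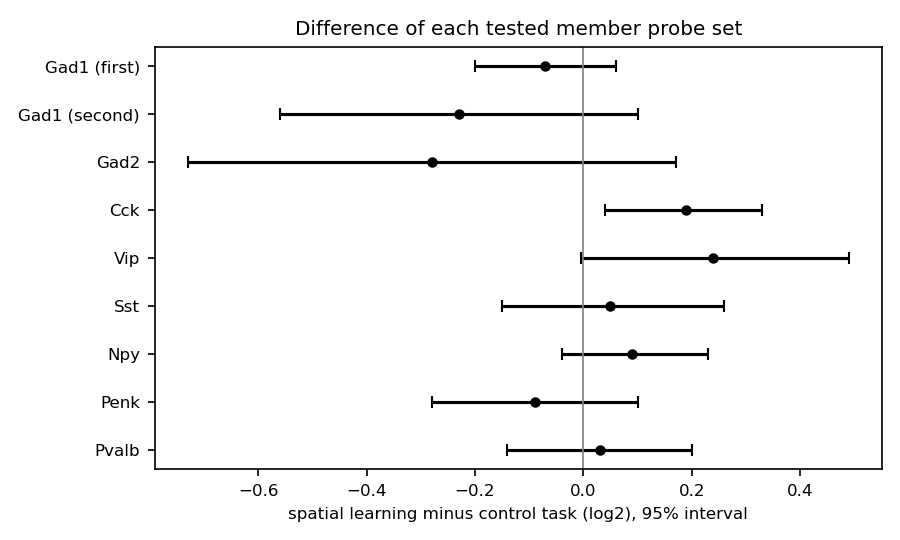
Difference between spatial learning and control task (log2) of the 9 tested member probe sets, with the 95% interval from limma. The interval of Cck, 0.04 to 0.33, lies above 0 before any adjustment, and those of the other 8 probe sets include 0.

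Over the members, 0 of 9 tested probe sets passed at a limma adjusted p of 0.05, as did 0.0% of all 9610 probe sets. At an unadjusted limma p under 0.05, 1 of the 9 (Cck) was called, where 10.9% of all probe sets were, 6.36% higher and 4.55% lower. By the exact permutation test, too, only Cck of the 9 had a p under 0.05. In 0 of the 9 did the groups not overlap, against 0.635% of all probe sets. A share of 1 in 9 is near the background. Of the 8 tested genes, each taken through its brightest probe set, 5 were higher and 3 lower, where 53.7% of all probe sets were higher. Their median difference was 0.043, and the median over all tested probe sets was 0.01. The median of the members turned to -0.010 without the 3 arrays that stood apart, to -0.0069 without spatial learning array 6 and to -0.012 with the hexokinase gap as a covariate. All intervals lay within -0.73 and 0.49, and for Gad1 (brighter probe set), Npy and Pvalb within -0.20 and 0.23, so that a doubling or halving lay outside every interval.

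The tested genes of GABA transport and breakdown were on the lower side, as were most tested microglia and astrocyte markers. None of these GABA genes passed adjustment over all probe sets. Of 10 genes listed, 8 had a probe set and 5 were tested: 0 were higher and 5 lower, with a median difference of -0.07. Over all probe sets 53.7% were higher. Of the tested microglia markers 0 were higher and 8 lower, of the astrocyte markers 2 and 9, and of the CA1 pyramidal markers 8 and 1. At an unadjusted limma p under 0.05, 0 of the 5 were higher and 1 lower, where 6.36% and 4.55% of all probe sets were. Abat, the GABA transaminase that breaks GABA down, was at 5.52 ± 0.04 in spatial learning and 5.81 ± 0.34 in control task arrays (log2, SD, n = 6 each), a difference of -0.29 (limma adjusted p = 0.437). Glul, the astrocytic glutamine synthetase, stood at -0.12 and Slc38a1, a glutamine transporter, at -0.06, with limma adjusted p of 0.506 and 0.763.

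A list of 40 other interneuron genes had 25 with a probe set and 15 bright enough to test, of which 9 were higher and 6 lower (median 0.01). At an unadjusted limma p under 0.05, 0 of the 15 were higher and 2 lower, where 6.36% and 4.55% of all probe sets were. Synpr, encoding the vesicle protein synaptoporin, which is also abundant in dentate granule cells, was at 8.72 ± 0.33 in spatial learning and 9.35 ± 0.37 in control task arrays, with 4 spatial learning arrays below every control (difference -0.63, limma adjusted p = 0.388). The 5 tested dentate markers, 1 higher and 4 lower, averaged 7.30 to 7.61 in spatial learning and 7.33 to 7.83 in control task arrays. Their part in the Synpr difference was not tested. Nr2f2, a transcription factor of interneurons born in the caudal ganglionic eminence, stood at -0.26 (limma adjusted p = 0.437), and Tac3, the neurokinin B precursor, at 0.12 (limma adjusted p = 0.473).

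Of 17 receptors for the member peptides, 15 had a probe set and 5 were bright enough to test, with 2 higher and 3 lower (median -0.08). The other 10, among them the VIP receptors Vipr1 and Vipr2, the neuropeptide Y receptors Npy2r and Npy5r and the opioid receptors Oprd1, Oprm1 and Oprk1, were too dim to test. Sstr1, a somatostatin receptor, was at 6.53 ± 0.49 in spatial learning and 7.09 ± 0.36 in control task arrays, a difference of -0.56 (limma adjusted p = 0.429). Sstr2, another somatostatin receptor, stood at -0.21 (limma adjusted p = 0.509). Adcyap1r1, a receptor of the VIP receptor family that prefers the related peptide PACAP, was at 9.39 ± 0.13 in spatial learning and 9.25 ± 0.06 in control task arrays, with 4 spatial learning arrays above every control (difference 0.14, limma adjusted p = 0.437).

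Of 18 genes of prohormone processing and dense-core vesicles, 17 had a probe set and 16 were tested, 9 higher and 7 lower (median 0.01). Sort1, encoding the sorting receptor sortilin, stood at 0.13 (limma adjusted p = 0.429), Scg5, the chaperone of the convertase PC2, at 0.09 and Scg2, a secretogranin of the vesicle core, at -0.14. The range of the list's mean per array was narrow, 10.46 to 10.55 in spatial learning and 10.47 to 10.53 in control task arrays.

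No common pattern of the members from animal to animal passed a test. For the 8 tested genes there were 28 pairs, and 0 had a correlation past an adjusted p of 0.05 over the 12 arrays, by Pearson's r or by Spearman's rho (permutation tests, 2 pairs with an unadjusted p under 0.05 by each). Of the 28 Pearson coefficients 14 were positive and 14 negative, and 2 had a size of at least 0.6, a size that 5.84% of all pairs of named genes reached. With the group means removed, 4 pairs had an r of at least 0.6 in size, Cck with Gad1 at -0.65, Cck with Vip at -0.68, Vip with Gad1 at 0.66 and Sst with Pvalb at 0.62. That is 4 of 28 pairs, which share genes, where 6.79% of all 23574411 pairs among 6867 named genes reached that size. The median r of the member pairs was then 0.018 and that of all pairs 0.0. Within the groups the median r was 0.21 in spatial learning and -0.13 in control task arrays, and the difference between these was not tested.

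**Figure D3:**
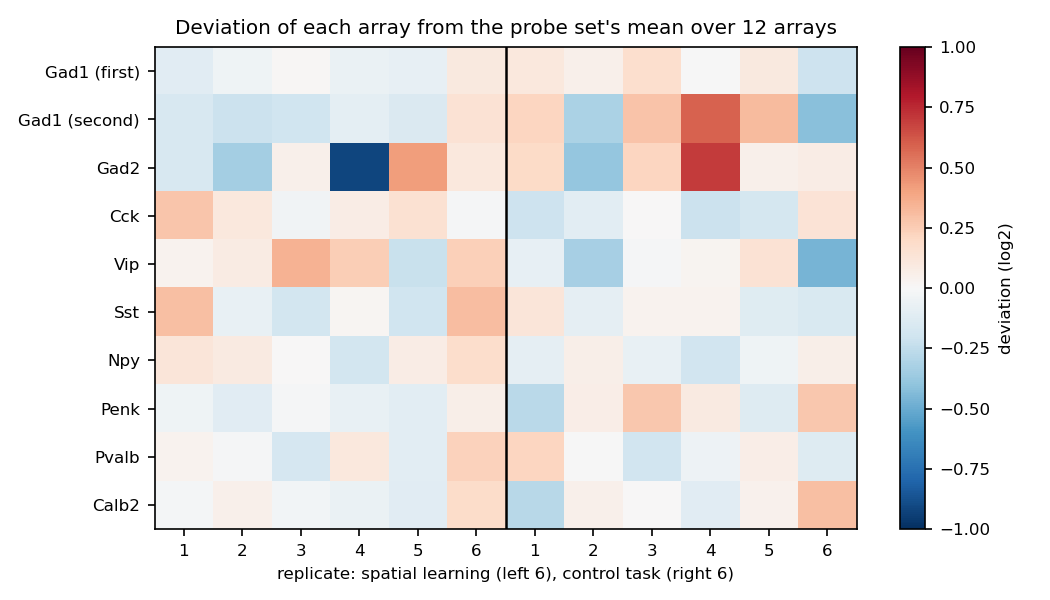
Deviation (log2) of each array from the mean of its probe set over 12 arrays, for the 10 member probe sets. Columns are spatial learning replicates (left) and control task replicates (right); red is above and blue below the mean. No column is uniformly red or blue: control array 6 is lowest of its group for Sst, Vip and both Gad1 probe sets and highest for Cck, Npy, Penk and Calb2.

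The ranks of single arrays differed in kind. Spatial learning array 6 was the highest of its group for 7 of the 10 probe sets, Sst, Npy, Penk, Pvalb, Calb2 and both of Gad1, and the lowest for 0. Control array 6 was the highest of its group for 4 (Cck, Npy, Penk and Calb2) and the lowest for 4 (Sst, Vip and both of Gad1). These were the arrays with the high meningeal markers, and the part of those markers in the ranks was not tested. The counts hold both probe sets of Gad1 and also Calb2, which was too dim to test. Ranks of the arrays over all probe sets were not counted, so these counts only describe the member probe sets.

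Cck and Gad1 had the r of largest size among member pairs when group means were kept, and it was negative. With group means removed, Cck with Vip and Vip with Gad1 were as large. Over 12 arrays Pearson's r was -0.69 (permutation p = 0.0140, adjusted over 28 pairs 0.392) and Spearman's rho -0.70 (permutation p = 0.0148, adjusted 0.414). Without the 2 arrays farthest from the median of Cck r was -0.75. It was -0.86 within the spatial learning arrays (exact permutation p = 0.0306, n = 6) and -0.56 within the control task arrays (exact permutation p = 0.251, n = 6), and -0.89 without the 3 arrays that stood apart. The second Gad1 probe set gave r = -0.65 and rho = -0.55 against Cck (permutation p = 0.0219 and 0.0664), the first of these adjusted over the 8 member genes to 0.122, and r was -0.42 without the 2 farthest arrays. The 2 Gad1 probe sets themselves had r = 0.63 and rho = 0.57 (permutation p = 0.0305 and 0.0569).

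Gad1 and Gad2, whose enzymes share one product, had an r of 0.18 and a rho of 0.24 over the 12 arrays (permutation p = 0.585 and 0.454). Leaving out the 2 farthest arrays gave r = 0.21. Any tie between them was not detectable with this number of arrays.

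Sst and Pvalb, which mark interneurons of a shared embryonic origin in the medial ganglionic eminence, had the largest positive r at 0.62 (permutation p = 0.0307, adjusted over 28 pairs 0.430) with a rho of 0.57 (permutation p = 0.0542). Without the 2 arrays farthest in Sst, r was 0.53. It was 0.81 within spatial learning (exact permutation p = 0.0528, n = 6) and 0.33 within control task arrays (exact permutation p = 0.512, n = 6).

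Penk and Pvalb had an r of 0.48 within spatial learning arrays (exact permutation p = 0.346, n = 6) and -0.98 within control task arrays (exact permutation p = 0.00278, unadjusted, n = 6). The second of these was the largest in size of the within-group coefficients of the 28 pairs, and the within-group p-values were not adjusted. The difference between the 2 coefficients of Penk and Pvalb was not tested. The pooled r was -0.57 (rho -0.53, permutation p = 0.0517 and 0.0792). It was -0.29 without the 2 arrays farthest in Penk, which are control arrays 3 and 6, -0.62 when spatial learning array 6 was left out as well, and -0.75 to -0.42 with 1 array left out. Cck and Npy had an r of 0.53 and a rho of 0.63 (permutation p = 0.0778 and 0.0316), which went to an r of 0.26 without the 2 farthest arrays. Vip and Gad1 had an r of 0.35 (rho 0.15, permutation p = 0.254 and 0.650) with the group means kept, 0.08 without the 2 farthest arrays, and 0.61 within spatial learning and 0.71 within control task arrays (exact permutation p = 0.194 and 0.103, n = 6 each), against -0.09 over the 9 arrays left without the 3 that stood apart. Cck and Vip had an r of -0.12 (rho -0.11, permutation p = 0.714 and 0.732), -0.68 within each group (exact permutation p = 0.124 and 0.133, n = 6 each) and 0.06 over the same 9 arrays. Npy and Gad2 also had opposite signs within the groups, 0.74 in spatial learning and -0.89 in control task arrays (exact permutation p = 0.107 and 0.0153, unadjusted, n = 6 each). Their pooled r was -0.04 (rho -0.19, permutation p = 0.911 and 0.557).

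**Figure D4:**
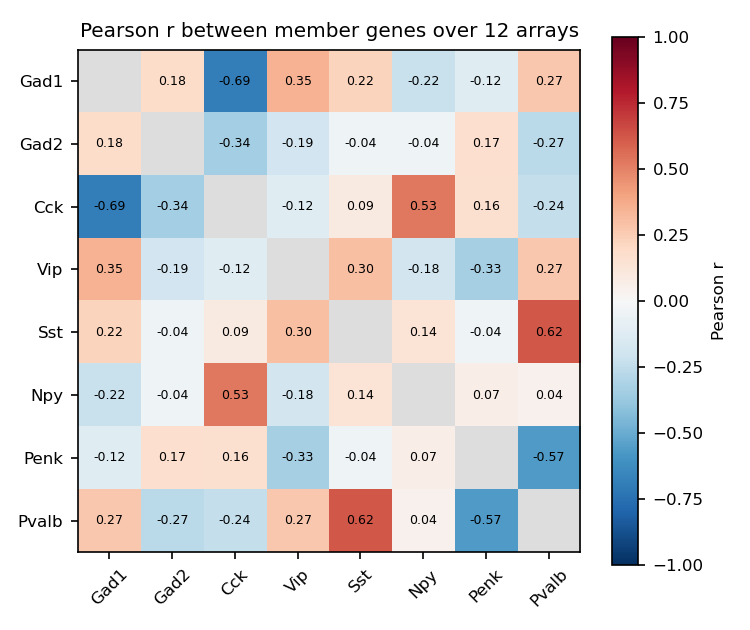
Pearson r between the 8 tested member genes over 12 arrays, each gene through its brightest probe set; red is positive, blue negative and the diagonal is left grey. Cck with Gad1 (-0.69) and Sst with Pvalb (0.62) are the extremes, and 14 of the 28 pairs are negative.

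Cck and Gad1 had correlations of opposite sign with the markers of other cells. Of 88 relations between the 8 member genes and 11 measures (10 marker lists and the hexokinase gap), 13 had an unadjusted permutation p under 0.05 and 0 passed adjustment over the 88, by Pearson's r or Spearman's rho. Cck had an r of 0.71 with the mean of the 9 tested CA1 pyramidal markers (rho 0.72, permutation p = 0.00898, adjusted 0.199). It had an r of -0.76 with the mean of the 9 tested oligodendrocyte markers (rho -0.74, permutation p = 0.00481, adjusted 0.199). Without the 2 arrays farthest in the marker mean these were 0.60 and -0.63.

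Within the groups, the r of Cck with the CA1 markers was 0.51 in spatial learning and 0.47 in control task arrays, and with the oligodendrocyte markers -0.70 and -0.97. Without the 3 arrays that stood apart the pooled values were 0.75 and -0.87. Gad1 had the opposite signs, r = -0.61 and rho = -0.73 with the CA1 markers (permutation p = 0.0359, adjusted 0.243) and r = 0.67 and rho = 0.61 with the oligodendrocyte markers (permutation p = 0.0172, adjusted 0.199). Without the 2 farthest arrays these were -0.52 and 0.32, and without the 3 arrays that stood apart -0.83 and 0.79. The mean of the 2 tested CA3 markers gave an r of 0.70 with Gad1 (rho 0.67, permutation p = 0.0125, adjusted 0.199) and -0.66 with Cck (rho -0.66, permutation p = 0.0229, adjusted 0.224), or 0.63 and -0.68 without the 2 farthest arrays. These 2 markers went opposite ways between the groups, Nnat at -0.34 and Grik4 at 0.07. Nnat had SDs of 0.27 in spatial learning and 0.22 in control task arrays, and Grik4 0.04 and 0.05. The CA3 mean therefore mostly follows Nnat, and the relation was not tested for each marker. The 11 tested astrocyte markers gave an r of -0.71 with Cck (rho -0.62, permutation p = 0.00921, adjusted 0.199), and -0.50 without the 2 farthest arrays. Without the 3 arrays that stood apart, the CA3 values were 0.67 and -0.72 and the astrocyte value -0.76.

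The marker lists were themselves related, with an r of -0.57 and a rho of -0.64 between the CA1 and oligodendrocyte means (permutation p = 0.0516 and 0.0267, the first of these 0.0516 adjusted over 3 list pairs). The CA3 mean had an r of -0.66 with the CA1 mean and 0.66 with the oligodendrocyte mean (rho -0.80 and 0.64, permutation p = 0.0218 and 0.0228, both adjusted to 0.0342). The relations of Cck and Gad1 with these lists are therefore not separate observations. The adjustment covered only the 3 pairs among these 3 lists, not all pairs of the 10 marker lists. Within the groups, the r of the CA3 and CA1 means was -0.97 in spatial learning but -0.1 in control task arrays. For the CA3 and oligodendrocyte means it was 0.74 and 0.62, and for the CA1 and oligodendrocyte means -0.73 and -0.6. Differences between the groups in these coefficients were not tested. All 3 lists had relations with both Cck and Gad1 at an unadjusted permutation p under 0.05. The oligodendrocyte means covered nearly the same range in both groups, 10.11 to 10.49 in spatial learning and 10.06 to 10.50 in control task arrays. Of the CA1 markers 8 of 9 were higher after spatial learning (median 0.14), beside the Cck difference of 0.19. At an unadjusted limma p under 0.05, 4 of the 9 were higher and 1 lower, against 6.36% and 4.55% of all probe sets. The part of these markers in the Cck and Gad1 differences was not tested.

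**Figure D5:**
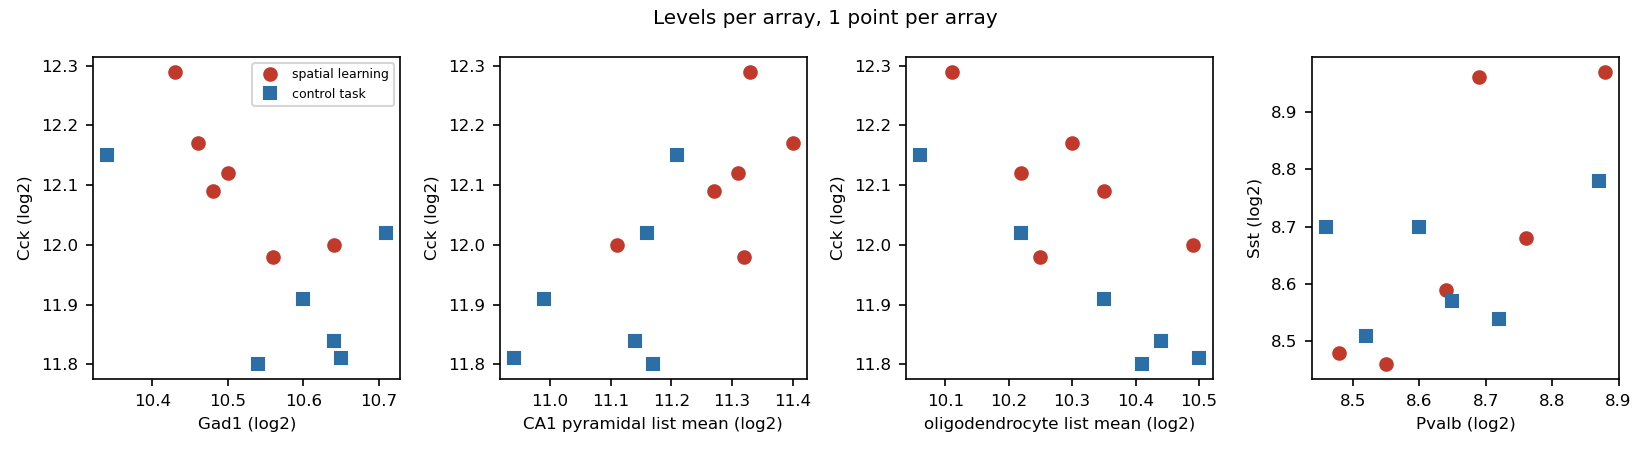
Levels (log2) per array, spatial learning as red circles and control task as blue squares: Cck against Gad1, Cck against the mean of the CA1 pyramidal markers, Cck against the mean of the oligodendrocyte markers, and Sst against Pvalb. The points slope down for Cck with Gad1 (r = -0.69) and with the oligodendrocyte mean (r = -0.76), and up for Cck with the CA1 mean (r = 0.71) and Sst with Pvalb (r = 0.62), all over 12 arrays and none past adjustment.

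Npy, Pvalb and Penk also had relations with marker lists at an unadjusted p under 0.05. Pvalb had an r of 0.67 and a rho of 0.67 with the oligodendrocyte markers (permutation p = 0.0181, adjusted 0.199), 0.83 without the 2 farthest arrays and 0.47 without the 3 arrays that stood apart. Npy had an r of -0.70 with the dentate markers (rho -0.55, permutation p = 0.0126, adjusted 0.199), -0.52 without the 2 farthest arrays and -0.75 without the 3 that stood apart. Its r with the 6 tested striatum and thalamus markers was -0.63 (rho -0.60, permutation p = 0.0261, adjusted 0.23). That r was -0.69 without the 2 farthest arrays and -0.63 without the 3 that stood apart. Penk had an r of 0.68 with the choroid plexus markers (rho 0.50, permutation p = 0.0140, adjusted 0.199) that was 0.07 without the 2 farthest arrays and 0.09 without the 3 arrays that stood apart. Its r of 0.60 with the meningeal markers (rho 0.31, permutation p = 0.0350, adjusted 0.243) was 0.51 without the 2 farthest arrays and -0.38 without the 3 arrays that stood apart.

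The genes with the pattern most like a member, by Pearson r over the 12 arrays with group means removed, were looked up among the 6867 named genes. For Cck they were Scamp1 (0.93), Ap4s1 (0.92) and Fibcd1 (0.92), the last one of the CA1 pyramidal markers. For Gad1 they were Adarb1 (0.94), Pcyt1a (0.89) and Slc38a2 (0.88), the last a glutamine transporter on the list of GABA transport and breakdown. For Gad2 they were Osbpl2 (0.95), Hsd17b8 (0.84) and Ndufs3 (0.84), and for Sst Slc25a12 (0.92), Cfap20 (0.90) and Mdh2 (0.89). These are the 3 highest of many coefficients, each from 12 arrays that share tissue and processing, and are given as a description. Members were left out of the lookup, and the highest r between a pair of members on the same scale was 0.66. That is the highest of only 28 pairs, so it cannot be compared with the highest found among 6867 genes.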

How the data were processed

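The authors' deposited values are log2 probe set summaries of 12 arrays in 1 table. The tool named in the submitters' processing notes is GCRMA, which corrects background by probe sequence and equalises the arrays' distributions. It compresses differences near background and hides changes in total RNA. No source used here gives its version or any hybridisation batch, and the log2 scale was read from the range of the values, 0.134 to 14.8. Titles of the samples gave the group and the biological replicate number of each array.

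The platform annotation named the probe sets, 12783 with 1 symbol, 312 with several and 2771 with none. Of 15866 probe sets other than controls, the 9610 with a mean of at least 4 entered a 2-sided limma test (version 3.58.1, R 4.3.3) of group alone, moderated by eBayes along a trend with intensity and adjusted by Benjamini-Hochberg over all 9610. The fit was checked on simulated data. A gene with several probe sets entered lists and correlations through the brightest. Exact permutation tests used the 924 splits of 12 arrays, and correlations 100000 permutations (all orders within a group of 6), all 2-sided. Up to 3 genes per list were named by smallest p, and the 3 nearest genes for Gad1, Gad2, Sst and Cck. The members and lists were chosen with earlier results of these data known.

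Alternatives were no filter, a mean of at least 6, quantile normalization, a replicate block, no trend, robust eBayes, array weights, the hexokinase gap as covariate, leaving out 3 arrays, leaving out each array, and for correlations Spearman's rho, other treatment of group means and the mean over probe sets.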

Additional observations from a re-analysis of the deposited data

Results flagged for a closer look

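The second Gad1 probe set in spatial learning array 6, at 6.54, lay apart from the other 5 spatial learning arrays, the nearest of which was at 6.30. Abat in spatial learning array 1, at 5.44, lay below the other 5, the nearest at 5.51, in a group whose SD was only 0.04. Both were picked by Dixon's ratio of gap to range. Of 44 groups checked over 22 probe sets 2 were picked, and chance picks about 1 in 20.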

How the results depend on the processing

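No member probe set passed at a limma adjusted p of 0.05 under any of the 21 other fits. The number of all probe sets called was 0 as reported, 3 with array weights, 5 without control arrays 3 and 6 and spatial learning array 6, and 0 to 3 when 1 array was left out, the 3 arising without control array 6. The number of member probe sets with an unadjusted limma p under 0.05 was 1 as reported, 2 with array weights (Cck and Vip), 0 with the hexokinase gap as covariate, 3 without the 3 arrays (Cck and both of Gad1) and 1 to 3 when 1 array was left out, 2 without spatial learning array 4 (Cck and Npy) or 5, or control array 4 or 5 (Cck and Vip each), and 3 without control array 6 (Cck and both of Gad1). The replicate block left Cck as the 1 such member and called 0 probe sets. Same-numbered arrays of the groups did not deviate together (r from -0.17 to 0.08), so the numbers were not taken as pairs, and 1 of the 6 spatial learning arrays correlated best with its own number.

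Cck, Vip, Gad1, Gad2 and Penk kept their sign in all fits, Cck between 0.15 and 0.29. Sst turned to -0.011 with the hexokinase gap, -0.015 without the 3 arrays and -0.00063 without spatial learning array 6. Pvalb turned to -0.014 with the hexokinase gap, -0.086 without the 3 arrays, -0.013 without spatial learning array 6 and -0.0041 without control array 3. Npy turned to -0.0064 with the hexokinase gap. Penk against the meningeal markers turned to an r of -0.38 without the 3 arrays, a setting added once the data had been seen. With 1 array left out, Sst ran from -0.00063 to 0.10 and Pvalb from -0.013 to 0.077. The cause was not tested. The number of member pairs past adjustment was 0 under all alternatives. Calb2 and genes below a mean of 4 have too little signal over background to be compared, and 6 arrays per group limit the precision of the correlations.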
